A study of Mus musculus with 8 samples.

Results

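The mitosis and spindle genes described here are 35 genes whose products drive entry into mitosis, build the spindle, hold and separate the chromosomes, and divide the cell. They were taken by gene symbol from a table of 18501 genes. The rule that picked them used no expression value, but the list was drawn up with earlier results of these data known. All 35 were found and all 35 passed the low-count filter that left 14359 genes for testing. RNA was sequenced from chondrocytes, the cells of cartilage, of 10-day-old CD1 mice. The cells were freed from rib cartilage with collagenase, filtered and plated before extraction. The study compared 2 mouse lines with changes at Mir140, the gene of the microRNA miR-140, and each line had its own wild-type group. CG mutants carried a mutation in the seed of the 3p arm, and CT mutants carried a C>T base change. Both changes are described as overexpressing the 5p arm. The 4 groups were CG wild type, CG mutant, CT wild type and CT mutant, each with 2 libraries. The labels leave unsaid whether replicate libraries are separate animals (levels of a Y-linked gene, given further on, bear on this), so the p-values rest on library-to-library spread, part of which may be technical. Levels of miR-140 itself were not analysed here.

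Cells enter mitosis when cyclin-dependent kinase 1, bound to cyclin A or B, is switched on. Aurora and polo kinases then mature the spindle poles, kinetochores tie chromosomes to microtubules, and the spindle checkpoint holds the anaphase-promoting complex until every chromosome is attached. Most of these genes are transcribed in G2 and M phase and are low in resting cells, so their mRNA is widely used as a measure of proliferation. In growing cartilage, dividing chondrocytes form the proliferative columns, and plated chondrocytes can keep dividing. In bulk RNA, fewer cells of a kind and less RNA per cell cannot be told apart.

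G2 and M phase genes are known for 2 promoter elements. The CHR element (cell cycle genes homology region) is bound by the MuvB core complex, and the CCAAT box is bound by NF-Y. RefSeq promoter windows on GRCm38.p6, from 250 bases before to 50 bases after the start, were matched for 29 of the 35 genes. The CHR was searched as TTTGAA or TTCGAA on both strands, and the CCAAT box as CCAAT on both strands. A CHR match was present in 23 of 29 windows (79.3%), against 16.6% of the 11337 tested genes with a window and 19.2% of all 32851 windows. A CCAAT match was present in 22 of 29 (75.9%), against 42.8% and 37.4%. Both were present in 20 of 29 (69.0%), against 7.04% and 7.52%. Of the genes with both, 4 are shown over the 200 bases before their start, read 5′ to 3′ on the gene's own strand, because their levels carry much of what follows. Capitals mark CHR and CCAAT matches in either orientation, so that TTCAAA is TTTGAA and ATTGG is CCAAT on the other strand.
Cdk1: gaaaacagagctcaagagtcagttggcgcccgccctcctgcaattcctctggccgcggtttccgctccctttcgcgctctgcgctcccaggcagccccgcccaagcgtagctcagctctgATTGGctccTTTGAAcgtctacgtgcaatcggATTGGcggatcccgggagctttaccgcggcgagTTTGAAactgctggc
Cdc20: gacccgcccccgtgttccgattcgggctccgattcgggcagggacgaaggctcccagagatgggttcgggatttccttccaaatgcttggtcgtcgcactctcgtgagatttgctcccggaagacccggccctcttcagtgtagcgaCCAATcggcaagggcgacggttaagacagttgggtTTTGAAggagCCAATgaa
Top2a: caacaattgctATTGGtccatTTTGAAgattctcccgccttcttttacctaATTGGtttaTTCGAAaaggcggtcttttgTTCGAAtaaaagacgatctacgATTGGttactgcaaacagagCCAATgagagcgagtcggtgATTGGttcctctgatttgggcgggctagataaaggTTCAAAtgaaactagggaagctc
Mki67: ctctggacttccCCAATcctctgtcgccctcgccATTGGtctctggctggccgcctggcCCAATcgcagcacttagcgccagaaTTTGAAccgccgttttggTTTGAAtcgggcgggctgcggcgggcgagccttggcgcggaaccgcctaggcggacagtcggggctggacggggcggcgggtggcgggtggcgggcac
These windows lie on the minus strand at chr10:69352913-69353112 for Cdk1, chr4:118437344-118437543 for Cdc20, chr11:99024190-99024389 for Top2a and chr7:135716380-135716579 for Mki67. In Cdk1 the CHR matches begin 71 and 15 bases before the start, and in Cdc20 the match begins 18 bases before it. Top2a holds matches at 179, 140, 120 and 23 bases before the start, and Mki67 holds matches at 116 and 98 bases. Within 50 bases of the start, a distance set after the positions had been seen, a CHR match was present in 21 of 29 genes (72.4%) against 4.33% of tested genes and 5.31% of all windows. A match is a run of letters and not a measured binding site. Ccnb1 and Cenpe held a CCAAT match and no CHR match, Anln, Ndc80 and Kif2c held a CHR match and no CCAAT match, and Birc5, Mad2l1, Nuf2 and Nusap1 held neither.

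Total counts ran from 26536868 to 28678641 per library. Principal components put the lines apart on the first axis (64.5% of variance) and CG mutant replicate 1 apart from the other libraries on the second (12.2%). Medians, counts and the genes whose values moved most are therefore also given without that library. The chondrocyte collagen gene Col2a1 was at 24140 to 50160 CPM (the count relative to the TMM-adjusted library size) in all 8 libraries, so the labelled cell type had its defining marker. Y-linked Ddx3y was counted 2231 to 3669 times in 5 libraries and 2 to 30 times in the other 3, so animals of both sexes were sequenced. Both CG mutant libraries were high in Ddx3y, while the other 3 groups each had 1 high and 1 low library, so the replicates of those 3 groups did not come from the same animal. The line cannot be told apart from whatever else differed between the lines, such as litter, culture or sequencing run.

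The mitosis and spindle genes were low throughout. Their mean FPKM, a level per length of transcript, ran from 0.15 for Cenpf to 5.19 for Mad2l1, and 19 of the 35 reached a mean of 1. Mad2l1 encodes the checkpoint protein that restrains the anaphase-promoting complex, and Cenpf a large kinetochore protein. Incenp, the scaffold of the chromosomal passenger complex, followed Mad2l1 at 3.94 FPKM, and the checkpoint kinase gene Bub1 stood just above Cenpf at 0.18 FPKM. Estimated counts per library ran from 3, for Bub1 in CG mutant replicate 1, to 451, for Mki67 in CT wild type replicate 1. Counting error is therefore largest for the lowest genes.

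**Figure D1:**
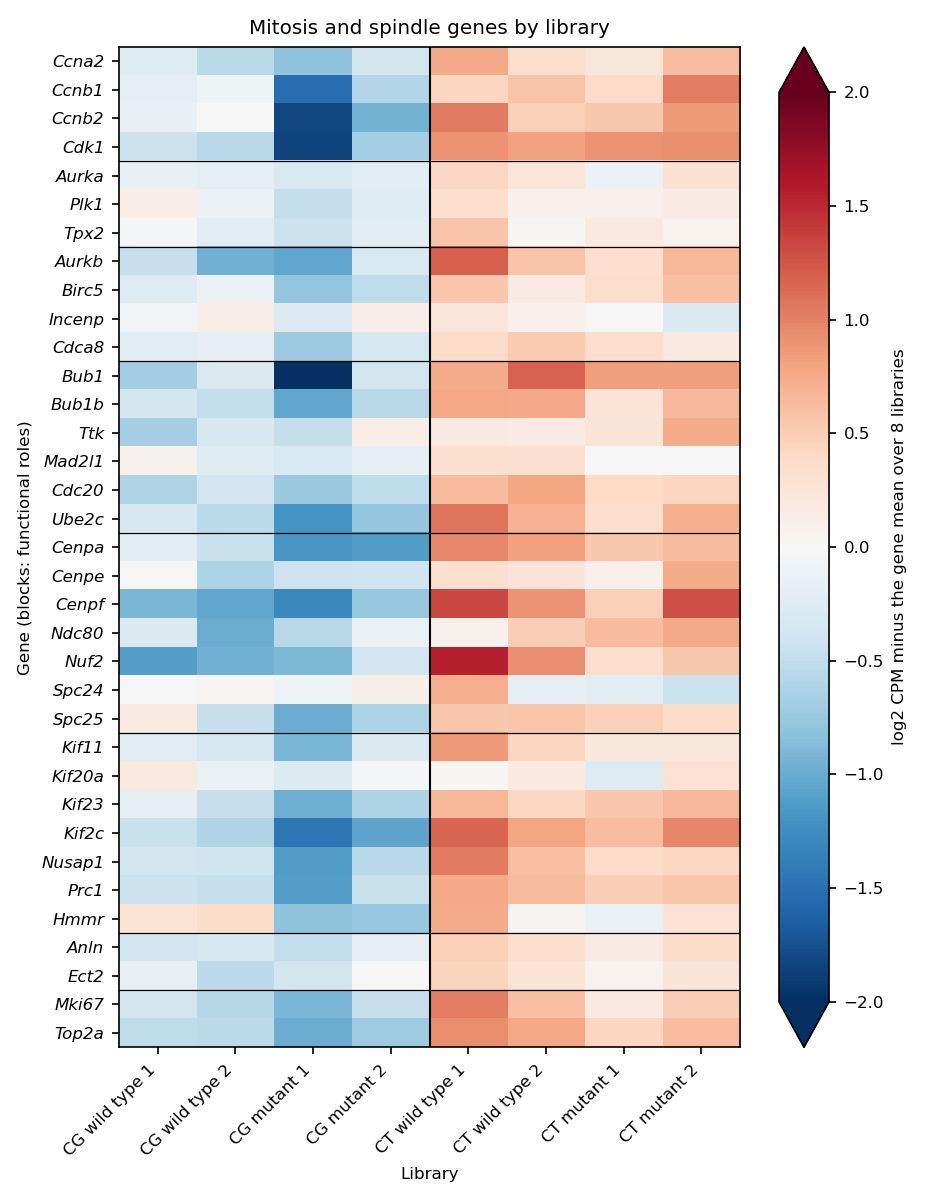
Level of each of the 35 genes (rows, in blocks by role) in each of the 8 libraries (columns), as log2 CPM minus the mean of that gene over the 8 libraries. The 4 CG libraries are mostly blue (below the gene's mean) and the 4 CT libraries mostly red, with CG mutant replicate 1 the darkest blue.

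The CT libraries held more of this mRNA than the CG libraries. The levels of all 35 genes summed to 104 and 97.3 CPM in the CG wild types and to 75.0 and 95.0 CPM in the CG mutants. They summed to 184 and 159 CPM in the CT wild types and to 141 and 156 CPM in the CT mutants. Every CT sum was above every CG sum. For 29 of the 35 genes (82.9%), all 4 CT libraries were above all 4 CG libraries, which held for 23.7% of all genes tested. The 6 exceptions were Plk1, Incenp, Mad2l1, Spc24, Kif20a and Hmmr, whose lines overlapped. The highest library was CT wild type replicate 1 for 23 genes, CT mutant replicate 2 for 7 and CT wild type replicate 2 for 5.

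Between the wild types, 18 of the 35 genes (51.4%) were higher in the CT line and 0 were lower (edgeR quasi-likelihood test, adjusted p under 0.05 over all genes tested). Among all genes tested, 17.0% were called higher. The median log2 fold change of the 35 genes was 0.87, against 0.00 over all genes, and all 35 values were above 0. Libraries did not overlap, with CT higher, for 30 of the 35 (85.7%), against 35.7% of all genes. When CG wild type replicate 1 or 2 was left out, the median of the 35 genes was 1.0012 or 0.8135, and it was 0.7146 without CT wild type replicate 1. Values were above 0 for 35, 34 and 33 genes in these fits. Fewer of the 35 genes and a smaller share of all genes passed in each of them. Each of these fits left a group with 1 library, which was assumed to vary like the other groups, and had fewer libraries.

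Both chromosome markers of proliferation were higher in the CT wild types. Mki67, which encodes the Ki-67 protein that coats mitotic chromosomes, was at 6.05 and 5.23 CPM in the CG wild types against 15.9 and 11.8 CPM in the CT wild types. The CT libraries lay well above both CG libraries, with a log2 fold change of 1.30 ± 0.22 (SE) (edgeR adjusted p = 0.00447). Top2a, which encodes the topoisomerase that untangles sister chromatids, was at 4.53 and 4.47 CPM against 12.2 and 11.0 CPM. Its log2 fold change of 1.36 ± 0.17 had the smallest p of the 35 genes (edgeR adjusted p = 0.00118).

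Among the checkpoint and anaphase-promoting genes, 3 of 6 were higher, namely Cdc20, Ube2c and Bub1b. Cdc20, the activator of the anaphase-promoting complex, was at 3.77 and 4.35 CPM in CG wild types against 8.82 and 9.82 CPM in CT wild types. The groups lay far apart, and the log2 fold change was 1.20 ± 0.17 (edgeR adjusted p = 0.0022). Ube2c, the ubiquitin-conjugating enzyme of the same complex, had 1.31 ± 0.27, and the checkpoint kinase-like gene Bub1b had 1.19 ± 0.26. Bub1, the checkpoint kinase Ttk and Mad2l1 did not pass. Mad2l1 was at 8.44 and 6.75 CPM against 9.95 and 10.0 CPM, a log2 fold change of 0.39 ± 0.16 (edgeR adjusted p = 0.0873).

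Of the cyclins and their kinase, Cdk1 and Ccna2 were higher and the B cyclins Ccnb1 and Ccnb2 did not pass. Cdk1, the kinase that starts mitosis, was at 1.99 and 1.84 CPM in CG wild types against 5.04 and 4.69 CPM in CT wild types. Its log2 fold change was 1.34 ± 0.32 (edgeR adjusted p = 0.0153). When each of the 4 wild-type libraries was left out in turn, Cdk1 did not pass, with edgeR adjusted p-values from 0.0501 to 0.0928 and log2 fold changes from 1.29 to 1.40. Ccnb1, a cyclin partner of Cdk1, was at 1.56 and 1.68 CPM against 2.40 and 2.65 CPM, a log2 fold change of 0.64 ± 0.35 (edgeR adjusted p = 0.192). The ranges of Ccnb1 did not overlap, but the difference did not pass the test.

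The chromosomal passenger complex corrects faulty attachments and directs cleavage. Its kinase gene Aurkb was at 0.616 and 0.439 CPM in CG wild types against 1.94 and 1.26 CPM in CT wild types. The log2 fold change of 1.58 ± 0.41 passed (edgeR adjusted p = 0.0208), but Aurkb did not pass when CG wild type replicate 1 or 2 was left out (0.067 and 0.125) and also lost its call when CT wild type replicate 1 was left out (0.102). Cdca8, which encodes borealin, was higher by a log2 value of 0.64 ± 0.21 (edgeR adjusted p = 0.0492), close to the threshold. Birc5, which encodes survivin, was at 1.92 and 2.11 CPM against 3.35 and 2.55 CPM, with a log2 fold change of 0.55 ± 0.26 (edgeR adjusted p = 0.137). Incenp overlapped between the wild types.

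At the kinetochore, 3 of 7 genes were higher, and Nuf2 and Cenpf had the largest log2 fold changes of all 35. Nuf2, a subunit of the NDC80 complex that grips microtubules, was at 0.326 and 0.359 CPM in CG wild types against 2.05 and 1.33 CPM in CT wild types. The CT libraries lay far above the CG libraries, with a log2 fold change of 2.28 ± 0.40 (edgeR adjusted p = 0.00468). Cenpf had 2.10 ± 0.39 and Cenpa, the centromeric histone gene, 1.22 ± 0.22. Of the spindle motors and microtubule factors, 5 of 7 were higher, namely Prc1, Kif2c, Nusap1, Kif23 and Kif11, with log2 fold changes from 0.87 to 1.50. Anln, which encodes the cytokinetic ring protein anillin, was higher by 0.76 ± 0.19, and the cytokinesis regulator Ect2 did not pass.

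None of the Aurora A and polo kinase group passed between the wild types. Plk1, the polo kinase gene, was at 4.20 and 3.51 CPM in CG wild types against 4.87 and 4.08 CPM in CT wild types. The ranges overlapped, and the log2 fold change of 0.21 ± 0.21 did not pass (edgeR adjusted p = 0.465). Aurka, the spindle pole kinase gene, had 0.50 ± 0.22 and its activator Tpx2 0.43 ± 0.20. Hmmr and Kif20a had the values nearest to 0, at 0.11 ± 0.29 and 0.08 ± 0.25.

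**Figure D2:**
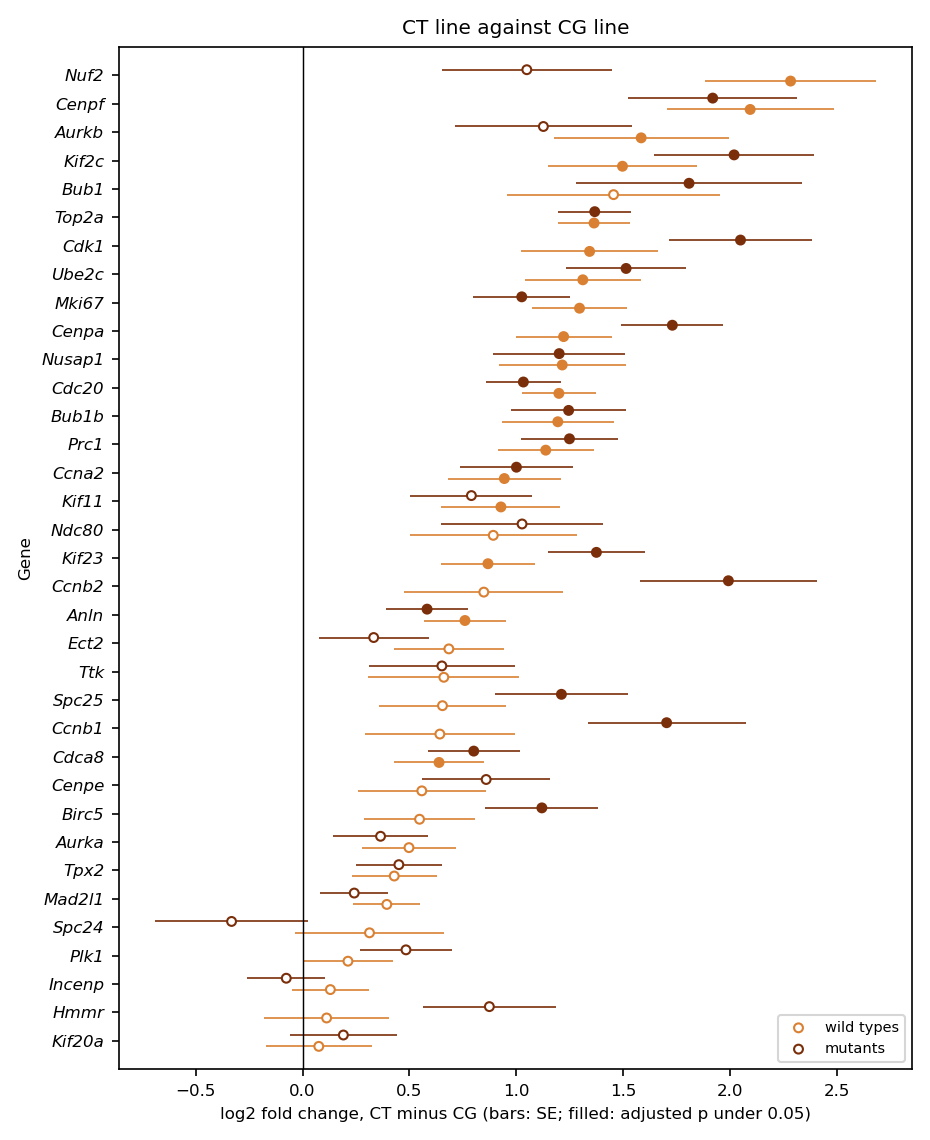
Log2 fold change of each gene, CT minus CG (horizontal axis, with bars of 1 SE), between wild types (orange) and between mutants (brown), with filled points for adjusted p under 0.05. All points but those of Incenp and Spc24 between mutants lie to the right of 0.

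Between the mutants, which share no library with the wild types, 20 of the 35 genes (57.1%) were higher in the CT line and 0 were lower (edgeR, adjusted p under 0.05), against 17.9% of all genes called higher. The median log2 fold change was 1.03, against -0.01 over all genes. Values were above 0 for 33 genes and below 0 for Incenp and Spc24. Libraries did not overlap, with CT higher, for 32 genes (91.4%), against 35.5% of all genes. Without CG mutant replicate 1 or without CT mutant replicate 2, fewer of the 35 genes and a smaller share of all genes passed. The medians of the 35 in these fits were 0.85 and 0.96.

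All 4 cyclin and Cdk1 genes were higher in the CT mutants. Cdk1 was at 0.748 and 1.68 CPM in the CG mutants against 5.00 and 5.14 CPM in the CT mutants. Its log2 fold change was 2.05 ± 0.33 (edgeR adjusted p = 0.00293), the largest of the 35 genes in the fit of all libraries. Without CG mutant replicate 1 it was 1.59 and passed (edgeR adjusted p = 0.00433), below the 1.71 of Cenpa in that fit. Ccnb1 was at 0.623 and 1.18 CPM against 2.32 and 3.62 CPM, a log2 fold change of 1.70 ± 0.37 (edgeR adjusted p = 0.0096). Ccnb1 was at 1.32 without CG mutant replicate 1, where it passed (edgeR adjusted p = 0.0381), and did not pass without CT mutant replicate 2 (edgeR adjusted p = 0.0652).

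Cenpa was at 0.997 and 1.03 CPM in the CG mutants against 3.27 and 3.49 CPM in the CT mutants. The replicates lay close together, and the log2 fold change was 1.73 ± 0.24 (edgeR adjusted p = 0.00145). Top2a was at 3.24 and 3.93 CPM against 8.66 and 9.88 CPM, with 1.37 ± 0.17 (edgeR adjusted p = 0.00104), nearly the same difference as between the wild types. Cdc20 was at 3.41 and 4.01 CPM against 7.52 and 7.68 CPM, with 1.03 ± 0.18. Mki67 was at 4.11 and 5.65 CPM against 8.92 and 11.0 CPM, with 1.03 ± 0.23 (edgeR adjusted p = 0.0104). Mki67 did not pass without CT mutant replicate 2 (edgeR adjusted p = 0.0663).

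Birc5 was at 1.33 and 1.60 CPM in the CG mutants against 2.91 and 3.49 CPM in the CT mutants, a log2 fold change of 1.12 ± 0.26 (edgeR adjusted p = 0.0134). It did not pass without CG mutant replicate 1 (0.0565) or without CT mutant replicate 2 (0.0813). Aurkb was at 0.416 and 0.687 CPM against 1.08 and 1.35 CPM and did not pass, with 1.13 ± 0.41 (edgeR adjusted p = 0.0657). Plk1 was at 2.74 and 3.24 CPM against 4.12 and 4.26 CPM. The Plk1 ranges did not overlap, but its log2 fold change of 0.48 ± 0.21 did not pass (edgeR adjusted p = 0.112). Again none of Plk1, Aurka and Tpx2 passed.

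Between wild types and between mutants, 15 genes passed in both: Anln, Bub1b, Ccna2, Cdc20, Cdca8, Cdk1, Cenpa, Cenpf, Kif23, Kif2c, Mki67, Nusap1, Prc1, Top2a and Ube2c. These are 15 of the 18 wild-type calls and 15 of the 20 mutant calls. Of all genes tested, 33.7% and 36.1% were called, higher or lower, in the 2 comparisons. The share of all genes called in both was not computed, so the overlap is not shown to be particular to the 35. Aurkb, Kif11 and Nuf2 passed between the wild types and did not pass between the mutants. Birc5, Bub1, Ccnb1, Ccnb2 and Spc25 passed between the mutants and did not pass between the wild types. The test of whether the line difference itself differed between mutants and wild types is the difference of the mutant effects given further on, and no gene of the 35 passed it. Another 12 genes passed in neither comparison.

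**Figure D3:**
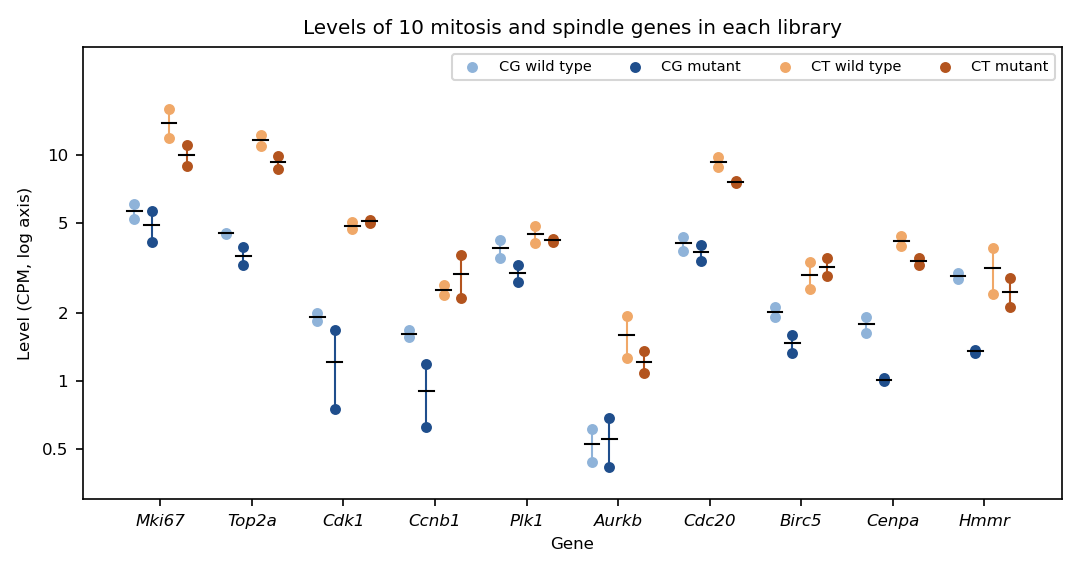
Level in CPM (log axis) of 10 of the genes in each library (points), with the group mean (black bar) and a line joining the 2 libraries of a group. For Mki67, Top2a, Cdk1, Ccnb1, Aurkb, Cdc20, Birc5 and Cenpa the CT points lie above all CG points. The Plk1 and Hmmr points of the lines overlap.

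Markers of other cell types also differed between the lines, and their part in the difference of the mitosis genes was not tested. Of the 9 listed erythroid markers, 7 were tested and 5 were higher in the CT wild types. Their summed level was 11.0 and 16.9 CPM in the CG wild types and 871 and 1535 CPM in the CT wild types. Of 7 endothelial markers 3 were higher, with sums of 29.1 to 37.7 CPM against 58.7 to 109 CPM. Of 10 macrophage markers 5 were higher and 1 lower, with sums of 488 to 569 CPM against 335 to 382 CPM. The leukocyte gene Ptprc was at 1.20 and 1.68 CPM against 9.98 and 4.86 CPM. Of 8 neutrophil markers 5 were higher and 1 lower, with sums of 2179 to 2739 CPM against 241 to 377 CPM. The fibroblast list had 2 of 8 higher and 2 lower, the osteoblast list 1 of 6 higher and the muscle list 1 of 6 higher and 4 lower. The chondrocyte list had 7 of 13 higher, with sums of 36300 to 37260 CPM against 55740 to 67090 CPM. Between the mutants all 7 tested erythroid markers were higher, with sums of 2.95 to 11.6 CPM against 791 to 808 CPM, as were 4 of 7 endothelial and 3 of 10 macrophage markers. The neutrophil list had 4 of 8 higher and 2 lower between the mutants, the fibroblast list 3 of 8 higher and 2 lower, the osteoblast list 1 of 6 higher and the muscle list 0 higher and 2 of 6 lower. The chondrocyte list had 4 of 13 higher and 1 lower, with a median log2 fold change of -0.04, against 0.81 between the wild types.

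Within the CG line, mutants with the altered 3p seed were compared with wild types. The CG change is also described as overexpressing the 5p arm, and this comparison cannot tell the seed change from that. None of the 35 genes passed (edgeR), and 0.00696% of all genes did. DESeq2 also called 0 of the 35, against 1.88% of the genes it gave an adjusted p. Values were below 0, that is lower in mutants, for 29 of the 35 genes, against 49.4% of all genes, and the median log2 fold change was -0.28. Both mutant libraries were below both wild-type libraries for 17 genes (48.6%), against 22.5% of all genes. They were above them for 1 gene (2.86%), against 23.2% of all genes. At an unadjusted p under 0.05, 3 genes were lower, against 4.87% of all genes, and 0 were higher. Without CG mutant replicate 1 the median was -0.10 and 13 genes were above 0. Without CG mutant replicate 2 it was -0.47. Both CG mutant libraries were high in Ddx3y and CG wild type replicate 1 was low. Sex was therefore uneven in this comparison, as it was between the mutants. With a term for Ddx3y in the fit, the median was -0.29 and 8 genes were above 0.

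Those 3 genes were Hmmr, Cenpa and Ccnb2. Hmmr, which encodes a spindle-binding hyaluronan receptor, was at 2.83 and 2.99 CPM in CG wild types against 1.33 and 1.37 CPM in CG mutants. The groups were tight and apart, with a log2 fold change of -1.10 ± 0.31 (edgeR adjusted p = 0.287). Cenpa was at 1.92 and 1.64 CPM against 0.997 and 1.03 CPM, with -0.81 ± 0.25 (edgeR adjusted p = 0.299). Ccnb2 was at 0.797 and 0.878 CPM against 0.249 and 0.458 CPM, with -1.22 ± 0.43 (edgeR adjusted p = 0.362). In none of the 3 did the mutant and wild-type libraries overlap. Without CG mutant replicate 1 the log2 fold changes were -1.08 for Hmmr, -0.79 for Cenpa and -0.86 for Ccnb2.

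Of the genes followed throughout, Cdk1 was at 1.99 and 1.84 CPM in CG wild types against 0.748 and 1.68 CPM in CG mutants, with mutant replicate 1 far below the rest. Its log2 fold change was -0.65 ± 0.35 (edgeR adjusted p = 0.528). Ccnb1 showed the same layout, at 1.56 and 1.68 CPM against 0.623 and 1.18 CPM, with -0.83 ± 0.38. Top2a had -0.33 ± 0.18, Plk1 -0.37 ± 0.22, Birc5 -0.46 ± 0.27 and Cdc20 -0.13 ± 0.18. Mki67 was at 6.05 and 5.23 CPM against 4.11 and 5.65 CPM, so the groups overlapped, and its log2 fold change was -0.21 ± 0.23. Aurkb overlapped as well, at 0.06 ± 0.45. EdgeR adjusted p-values of these genes ran from 0.463 to 0.970. Without CG mutant replicate 1 the log2 fold changes moved toward or past 0, to -0.19 for Cdk1, -0.45 for Ccnb1, -0.20 for Top2a, -0.25 for Plk1, -0.33 for Birc5, -0.02 for Cdc20 and 0.0005 for Mki67, while Aurkb moved up to 0.37.

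Against the direction of most genes, 6 of the 35 were above 0 in the CG line, namely Nuf2, Ttk, Ndc80, Ect2, Aurkb and Anln. Nuf2, at 0.41 ± 0.45, Ttk, at 0.35 ± 0.36, and Ndc80, at 0.26 ± 0.41, had the highest values. Nuf2 was the gene whose mutant libraries were both above the wild types, at 0.374 and 0.534 CPM against 0.326 and 0.359 CPM.

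CG mutant replicate 1 was below CG mutant replicate 2 for all 35 genes, with a median ratio of 0.762, while 51.8% of all genes tested were higher in replicate 1. It was the lowest of the 8 libraries for 28 of the 35. In the same library the endothelial markers summed to 12.7 CPM, against 29.1 to 39.2 CPM in the other CG libraries, and the macrophage markers to 334 CPM, against 472 to 569 CPM. Col2a1 was at 41090 CPM there, against 24140 to 25750 CPM in the other CG libraries. Over both CG mutant libraries, 10 of 10 macrophage and 6 of 7 endothelial markers had values below 0 and 11 of 13 chondrocyte markers above 0, none passing (edgeR). The part of these differences in the CG comparison was not tested. In the other groups replicate 1 was the higher for 23 of the 35 genes in CG wild types, for 27 in CT wild types and for 6 in CT mutants, so most genes also moved together between replicates there.

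In the CT line, the question was what the C>T change altered. None of the 35 genes passed (edgeR), and 0.00696% of all genes did. DESeq2 called 0 of the 35, against 0.157% of the genes it gave an adjusted p. Values were lower in mutants for 28 of the 35 genes, against 50.6% of all genes, and the median log2 fold change was -0.18. Both mutant libraries were below both wild-type libraries for 15 genes (42.9%), against 16.3% of all genes. They were above them for 2 genes (5.71%), against 17.2% of all genes. At an unadjusted p under 0.05, 1 gene was lower, against 2.66% of all genes, and 0 were higher. The smallest edgeR adjusted p of the 35 was 0.958. Leaving out CT wild type replicate 1 brought the median to -0.12, while leaving out CT wild type replicate 2 or CT mutant replicate 2 brought it to -0.30 or -0.31.

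The smallest p-values were those of Nuf2, Mki67 and Mad2l1. Nuf2 was at 2.05 and 1.33 CPM in CT wild types against 0.883 and 1.02 CPM in CT mutants, a log2 fold change of -0.83 ± 0.35 (edgeR adjusted p = 0.958). Mki67 was at 15.9 and 11.8 CPM against 8.92 and 11.0 CPM, with -0.48 ± 0.22, and wild type replicate 1 stood well above the other 3 libraries. Mad2l1 was at 9.95 and 10.0 CPM against 8.01 and 7.92 CPM, with tight replicates and a log2 fold change of -0.33 ± 0.16. In all 3 genes the mutant libraries were below the wild types without overlap.

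Top2a was at 12.2 and 11.0 CPM in CT wild types against 8.66 and 9.88 CPM in CT mutants, with -0.32 ± 0.16, and Cdc20 was at 8.82 and 9.82 CPM against 7.52 and 7.68 CPM, with -0.29 ± 0.17. Neither overlapped and neither passed. Cdk1 was nearly level, at 5.04 and 4.69 CPM against 5.00 and 5.14 CPM, with 0.06 ± 0.30. Ccnb1, at 0.23 ± 0.34, and Birc5, at 0.12 ± 0.25, were above 0, Plk1 was at -0.09 ± 0.21 and Aurkb at -0.39 ± 0.37. The 7 genes above 0 were Ndc80, Ttk, Ccnb1, Cenpe, Birc5, Cdk1 and Kif23, with Ndc80 highest at 0.40 ± 0.36. In the CT mutants the leukocyte gene Ptprc was at 2.55 and 3.72 CPM, below its 9.98 and 4.86 CPM in the CT wild types, and 9 of 10 macrophage markers had values below 0, none passing (edgeR). The neutrophil markers were below 0 for 7 of 8 (median log2 fold change -1.34), and in those 7 the mutants did not overlap the wild types, although none passed (edgeR). Their part in the values of the mitosis genes was not tested.

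**Figure D4:**
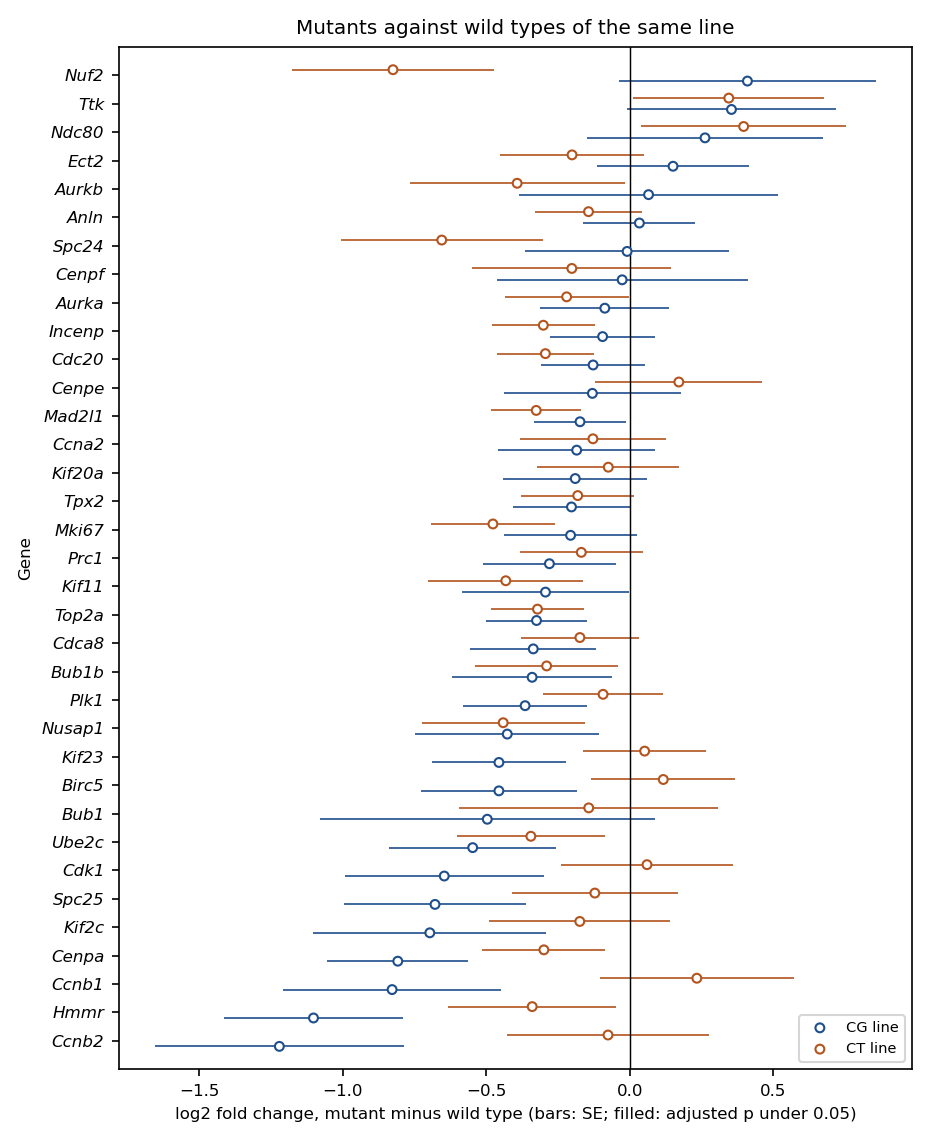
Log2 fold change of each gene, mutant minus wild type (horizontal axis, with bars of 1 SE), in the CG line (blue) and the CT line (orange). All points are open because no gene passed an adjusted p of 0.05, and most lie to the left of 0.

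Averaged over both lines, again 0 of the 35 genes passed (edgeR), as did 0.0% of all genes. DESeq2 called 0 of the 35, against 1.71% of the genes it gave an adjusted p. The mean effect was below 0 for 32 of the 35 genes, against 49.9% of all genes, with a median of -0.23. The median was -0.14 without CG mutant replicate 1, where 6 genes were above 0, and -0.36 without CG mutant replicate 2. The exceptions were Ttk, at 0.35 ± 0.25, Ndc80, at 0.33 ± 0.27, and Cenpe, at 0.02 ± 0.21. At an unadjusted p under 0.05, 4 genes were lower, against 5.4% of all genes. Cenpa had -0.55 ± 0.16 (edgeR adjusted p = 0.306), Hmmr had -0.72 ± 0.21 with 0.306, Top2a had -0.32 ± 0.12 with 0.379 and Ccnb2 had -0.65 ± 0.28 with 0.433. Of the other genes followed throughout, Mki67 had -0.34 ± 0.16, Ccnb1 -0.30 ± 0.25, Cdk1 -0.29 ± 0.23, Plk1 -0.23 ± 0.15, Cdc20 -0.21 ± 0.12, Birc5 -0.17 ± 0.18 and Aurkb -0.16 ± 0.29. When CG mutant replicate 1 was left out, Cdk1 had -0.07, Ccnb1 -0.11, Birc5 -0.11 and Aurkb -0.01. In Top2a, all 4 mutant libraries were below the wild types of their own line, as they were in Cenpa, Bub1b, Nusap1, Cdca8 and Spc25. The share of all genes tested with this pattern was not computed, so the pattern is not shown to be particular to them.

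The difference between the mutant effects, CG minus CT, passed for 0 of the 35 genes (edgeR), against 0.0209% of all genes, and DESeq2 called 0 of the 35, against 0.206% of all genes it tested. At an unadjusted p under 0.05 it was 0 of the 35, against 4.78% of all genes. The median difference was -0.06, with 14 genes above 0. Its direction turned with single libraries: it was 0.14 without CG mutant replicate 1, with 23 genes above 0, 0.03 with CG wild type replicate 1 left out and 0.06 with CT mutant replicate 2 left out. Leaving out replicate 2 of the CG mutants gave -0.30 and of the CG wild types -0.12, leaving out replicate 1 of the CT mutants gave -0.19, and leaving out replicate 1 or 2 of the CT wild types gave -0.10 or -0.02. The smallest p-values belonged to Nuf2, with a log2 difference of 1.23 ± 0.57, Ccnb1, with -1.06 ± 0.51, and Ccnb2, with -1.15 ± 0.56, and the edgeR adjusted p was 0.967 for each. With CG mutant replicate 1 left out these were 1.47, -0.68 and -0.78. These intervals are wide, so a failure to pass does not show that the lines responded alike.

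Other cell cycle genes give the setting of these values. Of 80 listed mitosis and spindle genes outside the 35, 79 were tested. Between the wild types 20 of them were higher in the CT line and 4 lower (median log2 fold change 0.41), and between the mutants 26 were higher and 5 lower, with a median of 0.49. Wee1, which encodes a kinase that inhibits Cdk1, was higher by 1.61 ± 0.17, and the condensin gene Smc4 by 0.76 ± 0.11. The 4 lower genes were Pttg1, Dsn1, Mad1l1 and Iqgap3, named after their values had been seen. Pttg1, which encodes securin, was at 5.90 and 8.98 CPM in CG wild types against 2.15 and 1.43 CPM in CT wild types, opposite in direction to Cdc20. Of 38 DNA replication genes, 17 were higher and 1, Tyms, lower between the wild types, with Mcm3 at 1.50 ± 0.12 and Mcm2 at 1.12 ± 0.11. Of the 9 G1 cyclins and kinases 7 were higher, with the smallest p-values for Cdc25a at 1.15 ± 0.10 and Cdk2 at 1.07 ± 0.11. The largest log2 fold change of that list was 1.86, for the cyclin gene Ccne2, named after its value had been seen. The share called higher was thus above the 17.0% of all genes in the mitosis, replication and G1 lists.

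Regulators of G2 and M phase transcription were also listed. Of 22 such genes, 7 were higher and 1 lower between the wild types, with a median of 0.31. E2f3 was higher by 0.64 ± 0.09 and the repressor gene E2f8 by 2.49 ± 0.35. Foxm1, an activator of G2 and M phase genes, was at 5.61 and 4.87 CPM in CG wild types against 7.34 and 6.63 CPM in CT wild types. Its log2 fold change of 0.41 ± 0.16 did not pass (edgeR adjusted p = 0.0851). Mybl2, which encodes the MuvB partner B-Myb, had 0.18 ± 0.19 (edgeR adjusted p = 0.505). Of the CDK inhibitors, 6 of 7 were tested and 1, Cdkn2b, was lower in the CT wild types, at -0.67 ± 0.18, while Cdkn2c, at 0.39 ± 0.13, did not pass.

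Within the lines no gene of these 5 lists passed (edgeR). In the CG line Cdkn1a, which encodes the CDK inhibitor p21, was at 776 and 725 CPM in wild types and at 482 and 466 CPM in mutants, with -0.66 ± 0.11 (edgeR adjusted p = 0.145). Ccnd1, the D cyclin of G1, was at 103 and 94.0 CPM against 184 and 160 CPM, with 0.80 ± 0.16 (edgeR adjusted p = 0.181). Among the other mitosis genes, Gtse1 had -1.38 ± 0.21 and Psrc1 -0.99 ± 0.18, with edgeR adjusted p-values of 0.128 and 0.169. The medians of the other mitosis genes were -0.10 in the CG line and -0.03 in the CT line. The replication genes had medians of -0.09 and 0.19, so in the CT line their median had the opposite sign to that of the 35 genes.

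**Figure D5:**
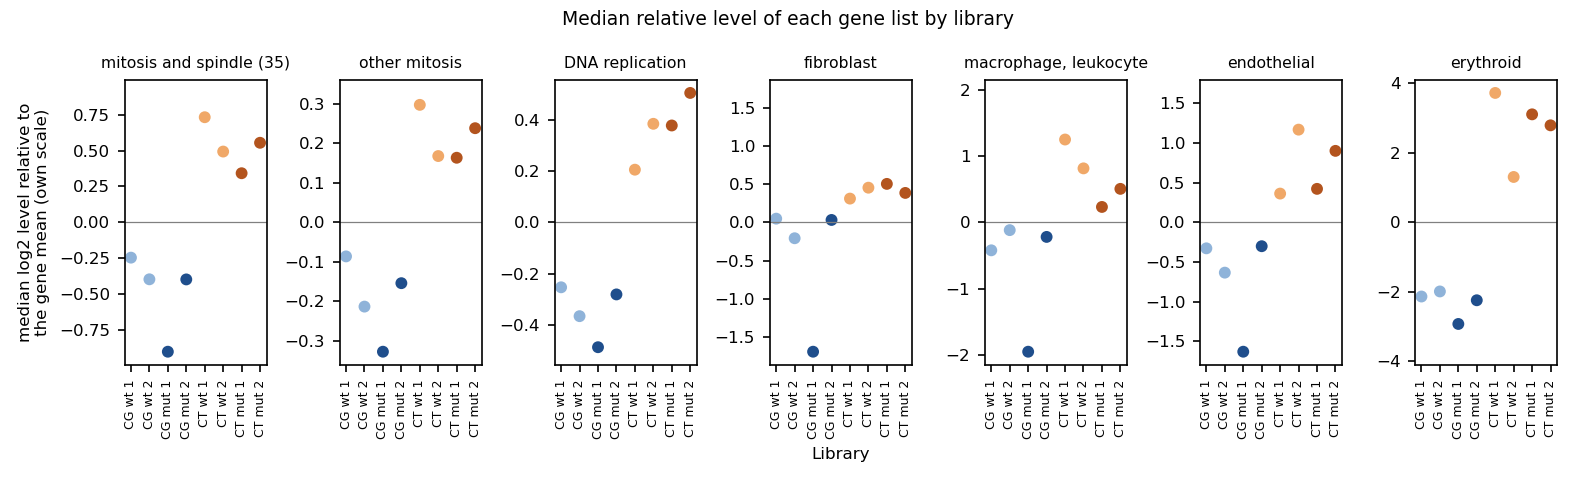
Median over each gene list of the log2 level relative to the gene's mean over the 8 libraries (vertical axis, own scale in each panel), 1 point per library, blue for CG and orange for CT with the darker shade for mutants. The CT libraries lie above the CG libraries in the mitosis and replication lists and in all the marker lists shown, and CG mutant replicate 1 is the lowest library in each panel. Lists not drawn differ: in the chondrocyte list CG mutant replicate 1, at 0.31, is above both CT mutants, and in the muscle list the other 3 CG libraries are above all CT libraries.

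Genes with and without a CHR match near the start had similar medians in the comparison of the lines, and their difference was not tested. Between the wild types, the median log2 fold change was 0.89 over the 21 genes with a match within 50 bases of the start, 12 of which passed (edgeR). It was 0.93 over the 8 genes without a match there, of which 4 passed. Of all genes tested, 17.0% were called higher in this comparison. The share called among all genes with such a match was not computed.

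The 3p arm of miR-140 pairs with targets through its seed, bases 2 to 8, which the CG mutation altered. Its RefSeq sequence is shown with the seed in capitals, at chr8:107551288-107551308 on the plus strand of GRCm38.p6. Below it is the first matching site of 4 genes in their longest 3′ UTR, the 7 matching bases in capitals.
miR-140-3p: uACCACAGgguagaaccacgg
Cdk1: agatgtcaCTGTGGTggctgtta
Aurkb: aggcacccCTGTGGTgcacatat
Hmmr: tctcttaaCTGTGGTctccacta
Mad2l1: tgctgattCTGTGGTaagttcag
A match was found in 7 of the 35 genes (20.0%), these 4 and Cdca8, Ndc80 and Spc24, against 2917 of 13907 tested genes with an annotated UTR (21.0%). The share was thus close to that of all genes. Mad2l1 and Ndc80 held 2 matches each. In the CG line the 7 genes had log2 fold changes of -1.10 for Hmmr, -0.65 for Cdk1, -0.34 for Cdca8, -0.17 for Mad2l1, -0.01 for Spc24, 0.06 for Aurkb and 0.26 for Ndc80, none passing (edgeR). The 5p arm is not shown.

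The authors' deposited table of comparisons lists 2655 genes, of which 17 are among the 35. In the authors' deposited table, none of the 17 had a q-value under 0.05 in the CG or the CT line, against 4.07% and 1.54% of all genes listed. Between the wild types 13 of the 17 (76.5%) had one in the authors' deposited table, against 78.3% of all genes listed. Between the mutants 14 (82.4%) had one in the authors' deposited table, against 75.7%. These shares are near those of all listed genes. That table is a selection, so the other 18 genes have no value in it.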

How the data were processed

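RNA was measured in 8 libraries. The estimated counts per gene were deposited by the authors without normalization, beside FPKM values, per the file headers. HISAT2 2.0.4 and the mm9 build are listed in the submitters' processing notes; the counter is not given in the sources used. Per library, 2282 to 2518 genes had fractional values, which were rounded; such counts can divide reads between near-identical genes. The authors' deposited table of comparisons holds log2 ratios and q-values from a test not named in the sources used.

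Counts were tested with edgeR 4.0.16 in R 4.3.3 (quasi-likelihood F test, 4 group means over all 8 libraries, TMM factors, default low-count filter, 4 residual degrees of freedom). P-values were adjusted over the 14359 genes tested (Benjamini-Hochberg, threshold 0.05). Each standard error is |log2 fold change| over the square root of F. There were 6 contrasts: mutant against wild type for CG and for CT, the mean and the difference of these effects, and CT against CG among wild types and among mutants. Scripts were tested on simulated data. Alternatives were DESeq2 1.42.0, limma 3.58.1 on log2 of FPKM plus 1 or 0.1 for genes with a mean FPKM of at least 1, RLE factors, library totals, no filter, a Ddx3y term, the contrast's own groups, a replicate block, and leaving out each library.

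The 35 genes and all lists were chosen with earlier results of these data known. The rule named Mki67, Top2a, Cdk1, Ccnb1, Plk1, Aurkb, Cdc20 and Birc5 always, with the 3 smallest p-values of each contrast, up to 3 genes of opposite sign and the highest and lowest mean FPKM. Outside the 35 it named Foxm1, Mybl2, Cdkn1a, Ccnd1, Ddx3y and the 2 smallest p-values of each list in the contrast described. Promoter windows came from RefSeq (GRCm38.p6) and 3′ UTRs from GENCODE M21. Depths of 26536868 to 28678641 counts leave the lowest genes with few counts, so counting error adds to their spread.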

Additional observations from a re-analysis of the deposited data

Results flagged for a closer look

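Nuf2, the kinetochore subunit gene, was the gene of the 35 whose mutant libraries were both above the wild types in the CG line and both below them in the CT line. In the CG line the mutants had 0.374 and 0.534 CPM and the wild types had 0.326 and 0.359 CPM. In the CT line the mutants had 0.883 and 1.02 CPM and the wild types had 2.05 and 1.33 CPM. The log2 difference of the effects, CG minus CT, was 1.23 ± 0.57, and this difference did not pass (edgeR adjusted p = 0.967). Estimated counts of Nuf2 ran from 9 to 58 per library.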

How the results depend on the processing

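The counts of genes called were recomputed under 100 combinations of comparison and alternative, and 95 stayed within 1.5 times the reported count. Within the lines, for the mean effect and for the difference of effects, every alternative called 0 of the 35 genes, as reported. These unchanged zeros make up most of the 95, and the limma counts among the 95 rest on 19 genes. Leaving out 1 library at a time gave 5 to 19 calls between the wild types (18 reported) and 9 to 21 between the mutants (20 reported). The low values were 8 and 5 without CG wild type replicate 1 or 2, 9 without CT wild type replicate 1, 13 without CG mutant replicate 1 and 9 without CT mutant replicate 2. These fits have fewer libraries, and a smaller share of all genes passed in each of them as well. The low counts therefore do not show a loss particular to the 35 genes. Between the wild types, the medians of the 35 were 1.0012 and 0.8135 without CG wild type replicate 1 or 2 and 0.7146 without CT wild type replicate 1. Between the mutants they were 0.8482 without CG mutant replicate 1 and 0.9559 without CT mutant replicate 2. The reported fit called 33.7% of all genes between the wild types and 36.1% between the mutants, higher or lower. DESeq2 called 16 and 18 of the 35 genes (24.1% and 26.0% of all genes it tested). Library totals called 19 and 28 (34.0% and 39.6% of all genes), and a Ddx3y term 16 and 17 (32.1% and 30.2%). Limma on log2(FPKM + 1) called 14 and 14 of the 19 genes at a mean FPKM of 1 (38.6% and 44.9% of all genes). Library totals moved the median of all genes by 0.12 and 0.21 between the lines. A replicate block gave 16 and 19 calls between the lines (30.6% and 33.4% of all genes) and 0 within the lines. Whether replicate numbers pair the samples is not given by the labels. Same-numbered deviations correlated at -0.09 in the CG line and at 0.25 in the CT line. In the CT line Ddx3y was counted 3512 and 3669 times in the mutant and wild-type replicates 1. It was counted 30 and 10 times in the replicates 2, so there the replicate number goes with sex.

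Of 918 recomputed log2 fold changes of named genes, 15 changed sign, none of them called in either fit, and the cause was not tested. In the CG line the range over left-out libraries was -0.451 to 0.0005 for Mki67 and -0.3424 to 0.3714 for Aurkb. In the CT line it was -0.1212 to 0.5196 for Ccnb1, -0.2156 to 0.0387 for Plk1 and -0.0678 to 0.3255 for Birc5. For the mean effect of Aurkb it was -0.3696 to 0.0084. The difference of effects of Top2a, -0.0033 as reported, was 0.0003 with no filter, 0.0066 with a Ddx3y term, 0.0347 with log2(FPKM + 1) and -0.1414 to 0.1312 over left-out libraries. With 3 to 10 counts in their lowest library, Bub1, Ccnb2, Kif2c, Nuf2, Aurkb and Ndc80 are the genes most limited by depth.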
